A study of Mus musculus with 3 samples.

Results

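The immediate early genes are genes that cells switch on within minutes of a stimulus, from transcription machinery that is already in place and without new protein synthesis. Serum, growth factors, mechanical strain and enzymatic dissociation of tissue all act on them, largely through MAP kinases, the serum response factor Srf with its cofactors, and Creb. Many of their products are transcription factors (the AP-1, Egr, Nr4a, Klf and C/EBP families), and others switch the response off again, by removing phosphate from MAP kinases or by destroying short-lived mRNAs. In sorted or dissociated cells they are widely used as signs of the handling itself.

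The group described here is a fixed list of 39 genes, most of them of this kind. Fosl1 and Fosl2 are induced later, and Fosl2 and Jund are also made in unstimulated or resting cells. Members were found as all probe sets (groups of short probes for 1 transcript) whose platform annotation gave a single symbol on the list. That gave 69 probe sets for 39 genes, of 34945 probe sets and 18193 genes with a single symbol in the series. All 39 genes had a value.

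The samples were cells of fetal kidneys from Meis1-EGFP transgenic mice, Tg(Meis1-EGFP)FO156Gsat, on a CD-1 background at embryonic stage E15.5 (Theiler stage 23), of unknown sex. The transgene makes green fluorescent protein under control elements of Meis1, a homeobox gene of the kidney stroma. Each of 3 arrays came from a separate pool of about 20 kidneys, treated with trypsin for 5 minutes at 37 °C, taken up in ice-cold buffer, passed through a 70 micron mesh and sorted for green cells. All 3 arrays belong to 1 group. Cells without the reporter, whole kidney and tissue that was not dissociated were not analysed here, so the genes have no level from before dissociation here, and a handling response and expression in the living kidney cannot be told apart.

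The labels call the sorted cells nephrogenic interstitium in one field and peripheral blastema in another. All 8 interstitium markers examined were above background, among them Foxd1, with signals of 28357, 31760 and 25999, and Meis1, with 18605, 18605 and 18247 in replicates 1, 2 and 3. The others were Meis2 (7.60 log2 units above the background level defined below), Fat4 (7.59), Aldh1a2 (7.33), Tcf21 (4.31), Dcn (3.48) and Rarb (5.22). Of 5 cap mesenchyme markers 3 were above background, where 57.3% of all genes were (Six2 at 1.86, Eya1 at 3.47 and Meox1 at 2.59 log2 units, with Cited1 at -4.20 and Osr1 at -3.13 not above it), as were 3 of 6 ureteric bud markers (Wnt11 at 2.06, Calb1 at 1.64 and Epcam at 4.13, with Ret at -0.34 and Wnt9b at -0.13 not above it). Of the endothelial markers 4 of 6 were above it (among them Cdh5 at 1.31, Kdr at 1.07 and Tek at 2.86, with Pecam1 at -1.64 and Flt1 at -0.67 not), of the macrophage and leukocyte markers 1 of 8 (Csf1r at 1.15, with Ptprc at -1.05 and Cd68 at -0.57 not), and of 5 measured erythroid markers 0. The shares for cap mesenchyme, ureteric bud and endothelium were near that of all genes. Epcam, an epithelial surface protein, had signals of 3148, 2398 and 3004 in replicates 1, 2 and 3. Summed signals of the macrophage list were 976, 1092 and 1067 in replicates 1, 2 and 3, with the leukocyte antigen Ptprc at 98.6, 104 and 46.1, and those of the endothelial list were 2276, 2467 and 3052. Leukocytes and endothelium make several of the genes below when disturbed, and their part in the values was not tested.

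A signal was judged against the background level of its own array, the 95th percentile of 72 chemosensory receptor genes, which are made in sensory neurons of the nose. These levels were signals of 135, 185 and 168 in replicates 1, 2 and 3. The distance of a gene is its log2 signal minus this level, averaged over the arrays (n = 3). Each distance is given with limma's moderated SE, which draws part of its variance from all genes. A one-sided limma test asked whether the distance exceeded 0. P-values were adjusted across the 18193 genes by the Benjamini-Hochberg method, and a gene was called above background under 0.05. Of 61 genes restricted to other tissues, 3 passed this test (4.92%; Prm1, Cpb1 and Lor). Probe sets differ in how well they bind, so distances say whether each transcript was seen and are not compared between genes. The labels do not say whether pools came from separate litters. SEs and p-values thus cover only the spread between these samples, combined by limma with the variance over all genes.

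Most immediate early genes were detected in the sorted stroma. Of the 39 genes, 32 were above background (82.1%), against 10432 of all 18193 genes (57.3%), and 7 were not: Fosl1, Junb, Egr4, Dusp2, Dusp5, Gadd45b and Arc. As a description only, since probe sets differ in binding, the median distance was 2.52 log2 units for the 39 genes and 1.52 for all genes. Counted by array, 33 genes lay above the level on all 3 arrays, 5 lay below it on all 3, and Gadd45b alone crossed it. The detected genes covered every family on the list, but in the Fos, Jun, Egr, Dusp and Gadd45 families detected genes stood beside relatives that were not above background.

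**Figure D1:**
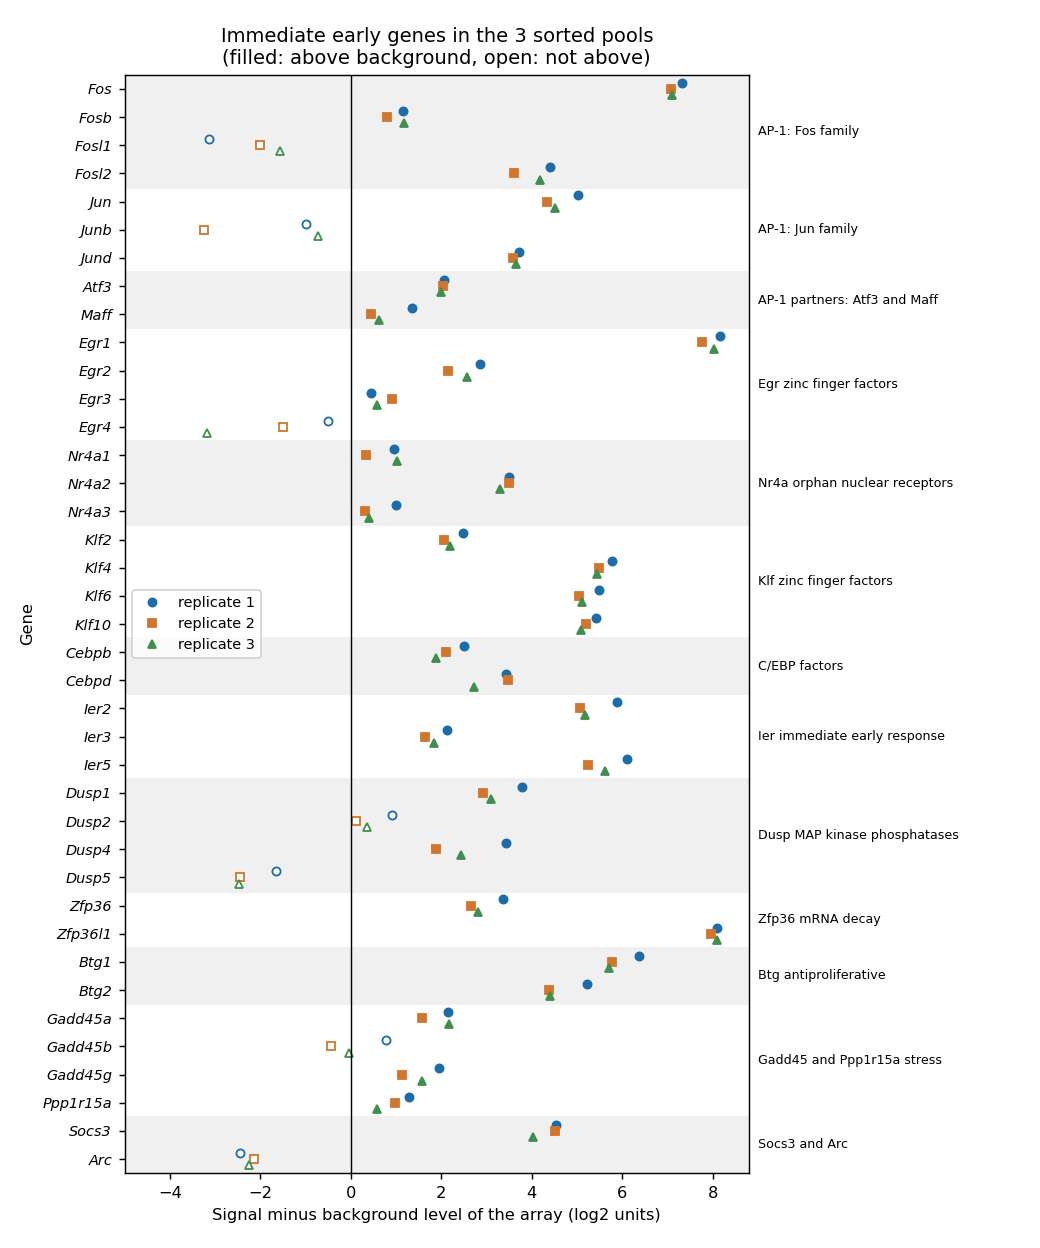
Signal minus the array's background level (x axis, log2 units) for the 39 immediate early genes (y axis, grouped by family), 1 symbol per sorted pool. Filled symbols mark the 32 genes above background in the limma test and open symbols the 7 that were not; Fosl1, Junb, Egr4, Dusp5 and Arc lie left of 0 in every pool.

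Of the Fos proteins, which pair with Jun proteins to form the AP-1 transcription factor, 3 of 4 were above background. Fos, the classical early response gene, had signals of 21476, 25183 and 22945 in replicates 1, 2 and 3, and lay 7.17 ± 0.20 log2 units above background (144-fold; limma adjusted p = 7.78e-07). The 3 pools were close together and far above their levels. Fosb, whose product resembles Fos, had signals of 298, 324 and 380 and was 1.04 ± 0.21 over the level (limma adjusted p = 0.00252). With the level raised to the 99th percentile it no longer passed (0.55, limma adjusted p = 0.0675). Fosl2, a slower member that is also made in unstimulated cells, had 2872, 2246 and 3055 and lay 4.07 ± 0.24 above (adjusted p = 5.89e-06). Fosl1, a Fos relative of late induction, had signals of only 15.4, 46.2 and 56.6 and lay at -2.24 ± 0.34, below the level in every pool.

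Among the Jun partners 2 of 3 were detected. Jun had signals of 4387, 3730 and 3854 and lay 4.63 ± 0.23 log2 units above background (limma adjusted p = 2.78e-06). Jund, the Jun gene of resting cells, had 1765, 2235 and 2120 and lay 3.65 ± 0.20 above (adjusted p = 3.91e-06). Junb, which is commonly induced together with Fos, had 67.8, 19.5 and 101, and lay at -1.66 ± 0.50. Its single probe set was thus under the level in each pool while those of Fos and Jun were far over it, and a probe set that fails looks the same as a transcript that is missing. Atf3, a stress-induced partner of Jun, had signals of 561, 761 and 666 and lay 2.03 ± 0.20 above background (limma adjusted p = 6.76e-05). Maff, a small Maf protein, had 342, 251 and 260 and lay 0.80 ± 0.25 above (adjusted p = 0.018), a call lost without replicate 3 (0.89, adjusted p = 0.0521).

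The Egr zinc finger factors, direct targets of Srf and its Elk cofactors, were above background in 3 of 4 cases. Egr1 had signals of 38416, 39991 and 44307 and lay 7.98 ± 0.21 log2 units above background (253-fold; limma adjusted p = 7.78e-07). All 3 pools exceeded their level by more than 7 log2 units. Egr2, known best from hindbrain and Schwann cells, had 977, 822 and 992 and lay 2.52 ± 0.23 above (adjusted p = 4.8e-05). Egr3 had 184, 349 and 251 and lay 0.65 ± 0.21 above (adjusted p = 0.0214), and lost its call without replicate 2 (0.51, adjusted p = 0.134) and without replicate 3 (0.68, adjusted p = 0.129). Egr4, a mainly neuronal member, had 95.1, 65.7 and 18.5 and lay at -1.73 ± 0.50.

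All 3 Nr4a genes, nuclear receptors that act without a known ligand and are regulated by how much is made, passed the test, 2 of them narrowly. Nr4a2 had signals of 1513, 2084 and 1647 and lay 3.42 ± 0.20 log2 units above background (limma adjusted p = 5.57e-06). Nr4a1, the member most often reported after stimulation, had 260.1, 232 and 342 and lay 0.77 ± 0.24 above (adjusted p = 0.0162), lost without replicate 1 (0.67, adjusted p = 0.0743) and without replicate 3 (0.64, adjusted p = 0.153). Nr4a3 had 268, 228 and 222 and lay 0.56 ± 0.23 above (adjusted p = 0.0469), the called gene nearest to the threshold. Its call was lost without replicate 1 (0.35, adjusted p = 0.0877), replicate 2 (0.69, adjusted p = 0.0506) or replicate 3 (0.65, adjusted p = 0.148). Dusp2, at 0.46 ± 0.24 (adjusted p = 0.0896), was the nearest on the other side.

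The 4 Klf factors and both C/EBP factors were above background. Klf4, a factor shared by stromal fibroblasts, epithelia and stem cells, had signals of 7375, 8305 and 7354 and lay 5.57 ± 0.21 log2 units above (limma adjusted p = 1.01e-06). Klf6 had 6059, 6084 and 5782 (5.21 ± 0.21), and Klf10, which responds to TGF-beta, had 5782, 6755 and 5737 (5.23 ± 0.21). Klf2, best known from endothelium under flow, had 757, 766 and 767 and lay 2.24 ± 0.21 above (adjusted p = 5.65e-05). The pools hardly differed for Klf2 and Klf6. Cebpb, a factor of the acute phase response and of fat cell formation, had 762, 789 and 624 (2.16 ± 0.22). Its relative Cebpd had 1449, 2049 and 1119.6 (3.21 ± 0.24; limma adjusted p = 1.8e-05), with a wider gap between pools.

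The 3 Ier genes, small early response genes named for their rapid induction, were detected. Ier2 had signals of 7983, 6155 and 6108 and lay 5.38 ± 0.25 log2 units above background (limma adjusted p = 2.04e-06). Ier5 had 9338, 7027 and 8218 (5.66 ± 0.25), and Ier3, a regulator of cell survival, had 588, 574 and 599 (1.86 ± 0.21; adjusted p = 0.000156). Every pool of all 3 genes was above its level.

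Negative regulators of the response were detected in part. Of the Dusp phosphatases, which inactivate MAP kinases, Dusp1 had signals of 1847, 1394 and 1447 and lay 3.26 ± 0.25 log2 units above background (limma adjusted p = 1.94e-05), and Dusp4 had 1465, 677 and 911 (2.58 ± 0.33; adjusted p = 0.000278). Dusp2 had 254, 201 and 214 and did not pass. Dusp5, which acts on ERK in the nucleus, had 42.9, 33.6 and 30.3 and lay at -2.20 ± 0.25. Both genes of mRNA decay were above background. Zfp36, which binds AU-rich messages such as those of cytokines, had 1399, 1170.4 and 1183 (2.95 ± 0.23), and its relative Zfp36l1 had 36850, 46362 and 45816 (8.05 ± 0.20; 265-fold; limma adjusted p = 7.78e-07). The antiproliferative genes Btg1, with 11084, 10195 and 8822 (5.95 ± 0.23), and Btg2, with 5006, 3865 and 3551 (4.67 ± 0.25), were also detected in every pool.

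Of the Gadd45 and Ppp1r15a stress genes 3 of 4 were above background. Gadd45a, a p53 target of growth arrest, had 599, 553 and 755 and lay 1.97 ± 0.23 log2 units above background (limma adjusted p = 0.000161), and Gadd45g had 522, 407 and 503 (1.56 ± 0.24). Ppp1r15a, which restarts translation after stress, had 329.8, 364 and 251 (0.95 ± 0.23; limma adjusted p = 0.00622). It did not pass at the 99th percentile (0.46, limma adjusted p = 0.142) or with the level from genes of other tissues (0.34, limma adjusted p = 0.0639). Gadd45b had 232, 136 and 163 and lay at 0.10 ± 0.29 (adjusted p = 0.608), above the level in replicate 1 only. Socs3, a feedback inhibitor of cytokine receptors, had 3114, 4246 and 2759.8 (4.36 ± 0.22; limma adjusted p = 2.84e-06). Arc, a gene of synapses, had 24.5, 42.1 and 35.2 and lay at -2.28 ± 0.21.

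What the genes share in sequence was described from RefSeq promoters of GRCm38.p6, windows of 300 bases from 250 before to 50 after a start site. By symbol 31 of the 39 genes matched, with 37 windows, and Arc, Cebpd, Dusp4, Egr1, Egr3, Fosl1, Ier2 and Klf10 were not analysed here. Exact matches on either strand were counted per gene. A site outside these windows, in Fos or any other gene, was not counted, so no match does not mean no site. The cyclic AMP element TGACGTCA, a binding site of Creb, stood in 4 of 31 genes (12.9%) and in 2.92% of 14452 measured genes: Btg2, Dusp1, Maff and Ppp1r15a. Its core TGACG, which lies within it, stood in 19 of 31 genes (61.3%) and in 30.0% of all. The CArG box, the site of Srf, stood in Dusp5, Egr2 and Zfp36 (9.68%, and 1.58% of all), and the TATA box TATAAA in 9 genes (29.0%, and 11.5% of all). The Egr site GCGGGGGCG stood in 8 genes (25.8%, and 5.27% of all) and its variant GCGTGGGCG in Maff alone (3.23%, and 1.17% of all). The AP-1 site TGAGTCA was in none of the 31 and in 5.33% of all.

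Matches stood in detected and undetected genes of the group. The core TGACG was in 15 of 26 detected genes and in 4 of 5 genes not above background (Dusp2, Dusp5, Egr4 and Junb), and in 36.6% of all 8505 detected genes with a promoter. These shares are counts of letters, with no test. Promoters of the group were richer in G and C (median 63.7%, against 58.3% for all windows), and the part of base composition in the shares was not tested. The 200 bases before the start site are printed for 6 genes: Fos for the group's best known promoter, Btg2 and Dusp1 for the full cyclic AMP element, Egr2 and Zfp36 for a CArG box in a detected gene, and Dusp5 for a pair of CArG boxes in a gene that was not above background. Capitals mark TGACG or its reverse complement (with the full element where present), the CArG box and TATAAA.
Fos, chr12:85473690-85473889, plus strand: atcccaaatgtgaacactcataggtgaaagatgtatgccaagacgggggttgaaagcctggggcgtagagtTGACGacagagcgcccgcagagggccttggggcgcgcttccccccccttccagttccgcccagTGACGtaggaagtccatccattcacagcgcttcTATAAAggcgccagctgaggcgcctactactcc
Btg2, chr1:134079156-134079355, minus strand: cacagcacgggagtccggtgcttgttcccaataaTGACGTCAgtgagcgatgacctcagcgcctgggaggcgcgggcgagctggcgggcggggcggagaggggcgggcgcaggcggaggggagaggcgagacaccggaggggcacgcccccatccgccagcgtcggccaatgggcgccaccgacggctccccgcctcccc
Dusp1, chr17:26508473-26508672, minus strand: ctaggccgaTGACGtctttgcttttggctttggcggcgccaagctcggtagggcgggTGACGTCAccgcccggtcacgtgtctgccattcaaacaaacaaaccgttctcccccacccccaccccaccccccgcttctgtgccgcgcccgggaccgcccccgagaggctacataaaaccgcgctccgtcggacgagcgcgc
Egr2, chr10:67537670-67537869, plus strand: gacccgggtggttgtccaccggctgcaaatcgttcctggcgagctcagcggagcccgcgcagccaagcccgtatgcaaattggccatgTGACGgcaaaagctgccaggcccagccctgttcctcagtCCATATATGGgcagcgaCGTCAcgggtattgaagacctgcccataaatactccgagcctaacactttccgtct
Zfp36, chr7:28379229-28379428, minus strand: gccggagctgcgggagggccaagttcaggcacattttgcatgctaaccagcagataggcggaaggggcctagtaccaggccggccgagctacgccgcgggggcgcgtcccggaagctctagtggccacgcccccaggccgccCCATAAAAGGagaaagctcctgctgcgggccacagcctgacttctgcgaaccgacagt
Dusp5, chr19:53528945-53529144, plus strand: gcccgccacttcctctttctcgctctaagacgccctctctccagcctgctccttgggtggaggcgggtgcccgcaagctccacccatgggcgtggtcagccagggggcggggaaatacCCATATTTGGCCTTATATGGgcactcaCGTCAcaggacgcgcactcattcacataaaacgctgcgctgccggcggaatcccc

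Counted back from the start site, the Fos promoter carries TGACG at positions -129 and -66 and TATAAA at -33. The full element begins at -166 in Btg2 and at -143 in Dusp1. The CArG box begins at -73 in the Egr2 window shown, where TGACG also lies at -112 and, on the opposite strand, at -56, and at -58 in Zfp36. Dusp5 has CArG boxes beginning at -82 and -72 and a core on the opposite strand at -55, and its signals of 42.9, 33.6 and 30.3 were below the level in every pool. A match is not a bound site, and binding was not measured here.

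**Figure D2:**
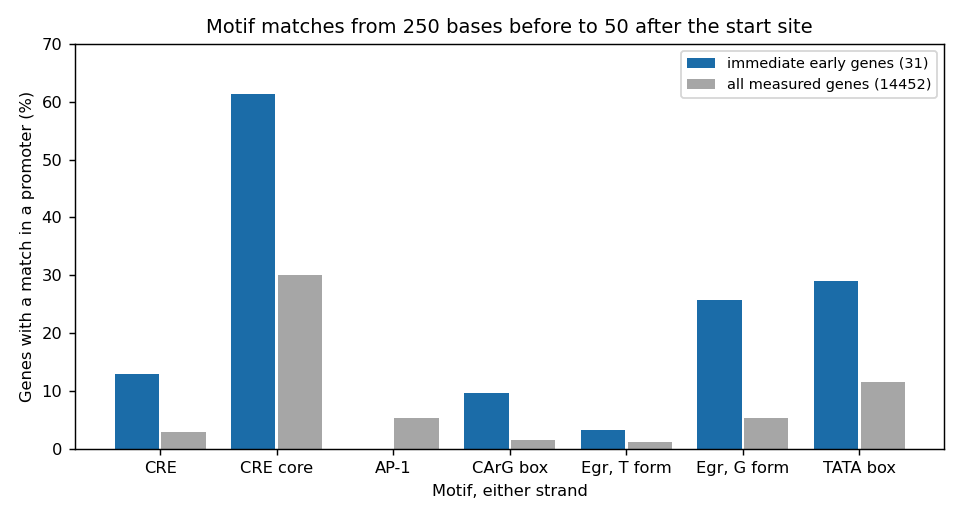
Share of genes with an exact match to each motif in a promoter window (y axis, percent) for the 31 immediate early genes with a promoter, left, and all 14452 measured genes with one, right. The core TGACG (CRE core) was in 61.3% of the immediate early genes and 30.0% of all genes, AP-1 sites were in none of the 31, and the T and G forms of the Egr site are GCGTGGGCG and GCGGGGGCG.

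Gene size was also described, with no test. The group's median genomic length in the RefSeq gene table was 3750 bases, with a range from 1199 (Ier3) to 41370 (Nr4a3), against a median of 20222 for 18142 measured genes with a length. Under 10000 bases were 31 of the 39 genes, and 30.2% of all. Short genes with few introns are a known property of immediate early genes.

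Several genes were measured by more than 1 probe set, and these often disagreed. Over probe sets, 41 of the group's 69 (59.4%) were above background, against 17025 of all 34945 (48.7%; limma, adjusted over all probe sets). Of 18 genes with several probe sets, 15 had at least 1 above background, and in 10 of those 15 another was not, as in 65.9% of all such genes in the series. All probe sets passed for Jun, Egr2, Klf4, Zfp36l1 and Btg2. Passing probe sets could still lie far apart, at 8.05 and 1.41 log2 units for Zfp36l1 and at 5.57 and 0.97 for Klf4. For Jun the signals were 4387, 3730 and 3854 on one and 3579, 2504 and 3118 on the other.

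Some calls rest on 1 probe set of several, and others on only part of them. Jund had 1 of 2 above background (3.65 and -2.58 log2 units). So had Fosl2 (4.07 and -0.56), Cebpd (3.21 and -0.26) and Egr3 (0.65 and -0.10). Nr4a2 had 1 of 6 above background, at 3.42, and the other 5 lay between -2.36 and 0.29. Klf6 had 3 of 5, at 5.21, 4.88 and 1.72, with the others at -1.19 and -2.02. Ier5 had 2 of 3, at 5.66 and 4.07, and 1 at -4.40 with signals of 6.02, 9.3 and 7.9. Btg1 also had 2 of 3, at 5.95 and 5.51, and 1 at -1.98. The 2 Cebpb probe sets lay at 2.16 and -3.65, so its mean over probe sets fell below the level. Socs3 was above background only on the 2 probe sets of the kind that can cross-hybridise (4.36 and 2.17), and the remaining one lay at -1.02 with signals of 85.0, 50.1 and 118. For Nr4a3 no probe set passed when the adjustment ran over all probe sets (limma adjusted p = 0.0668 for the brightest). RNA had been amplified in 2 rounds, and control probe sets at the 3' end exceeded those at the 5' end by 5.00, 5.39 and 5.26 log2 units for Gapdh and by 3.04, 3.40 and 3.04 for Actb in replicates 1, 2 and 3. Where each probe set lies in its transcript was not analysed here, and the part of this bias was not tested.

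**Figure D3:**
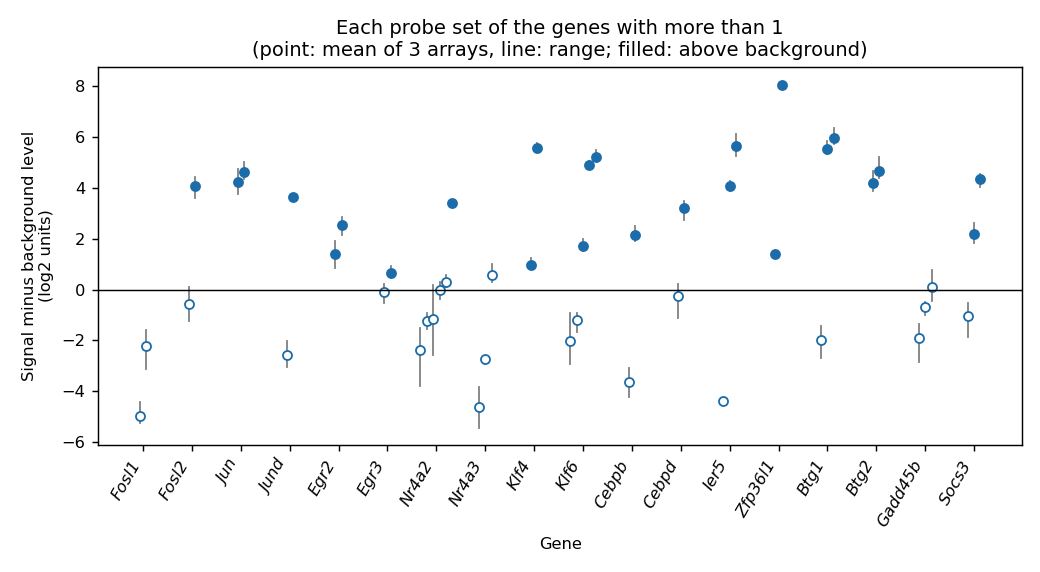
Signal minus background level (y axis, log2 units) of every probe set of the 18 immediate early genes with more than 1 (x axis); points are means of 3 arrays, lines their range, and filled points passed the limma test. In 10 genes filled and open points stand together, such as Ier5 (5.66, 4.07 and -4.40) and Nr4a2 (1 of 6 filled).

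Differences between the pools were taken after centring each array on its median over genes, since centring on the background levels, which themselves differed, placed replicate 1 highest for 26 of the 32 detected genes and for 86.8% of all detected genes. Among the 32 detected genes the median SD over the 3 arrays was 0.19 log2 units, and among all 10432 detected genes it was 0.16. The spread depends on signal, so genes were also set in 3 equal bins of mean signal. In the dimmest bin the median SD was 0.21 for 14 immediate early genes and 0.21 for all, in the middle bin 0.23 for 9 and 0.16 for all, and in the brightest bin 0.14 for 9 and 0.13 for all. With 3 arrays of 1 group, these are descriptions and have no test.

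**Figure D4:**
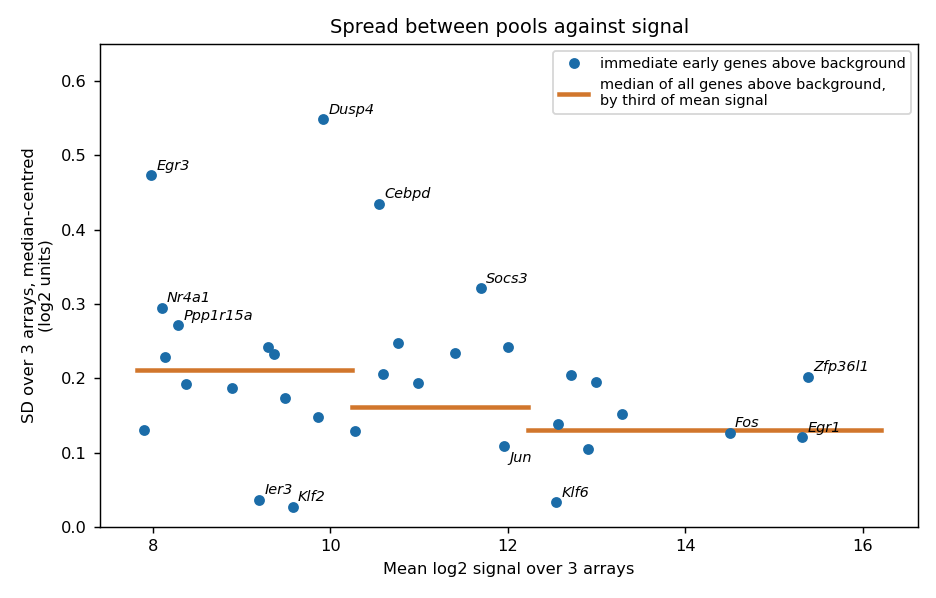
SD over the 3 median-centred arrays (y axis, log2 units) against mean log2 signal (x axis) for the 32 detected immediate early genes (points), with the median SD of all detected genes in 3 equal bins of signal (lines at 0.21, 0.16 and 0.13). Dusp4, Egr3 and Cebpd lie above 0.4, and Klf2, Klf6 and Ier3 below 0.04.

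The pools agreed closely for Klf2 (SD 0.027 log2 units), Klf6 (0.033) and Ier3 (0.037). Fos (0.13), Egr1 (0.12) and Jun (0.11) also varied little. Dusp4 varied more than the other detected genes (0.55), with 1465 in replicate 1 against 677 and 911 in replicates 2 and 3. Egr3 (0.47), Cebpd (0.44) and Socs3 (0.32) followed, each with its highest signal in replicate 2.

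The pool with the highest value differed from gene to gene. The highest centred value was in replicate 1 for 11 of the 32 detected genes, in replicate 2 for 13 and in replicate 3 for 8, and over all detected genes these shares were 36.7%, 34.5% and 28.8%. With the mean over probe sets the counts were 17, 10 and 5, and the shares of all detected genes 49.2%, 29.3% and 21.5%, so the leading pool depended on the probe set rule. Among the 11 were Jun, Ier2, Ier5, Dusp1, Dusp4, Zfp36, Btg1 and Btg2, while Fos, Atf3, Jund, Egr3, Klf4, Klf10, Nr4a2 and Zfp36l1 were highest in replicate 2 and lowest in replicate 1, an order of 25% of the detected group and 17.5% of all detected genes. Cebpb, Cebpd, Socs3, Ppp1r15a and Klf6 were highest in replicate 2 and lowest in replicate 3, an order that 15.6% of the detected group and 17.0% of all detected genes had. These sets were named after their values were seen. Dusp1 and Btg2 exceeded the mean of the other pools by 0.35 and 0.41 log2 units in replicate 1, Atf3 lay 0.37 below it, and Fos 0.19 below.

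**Figure D5:**
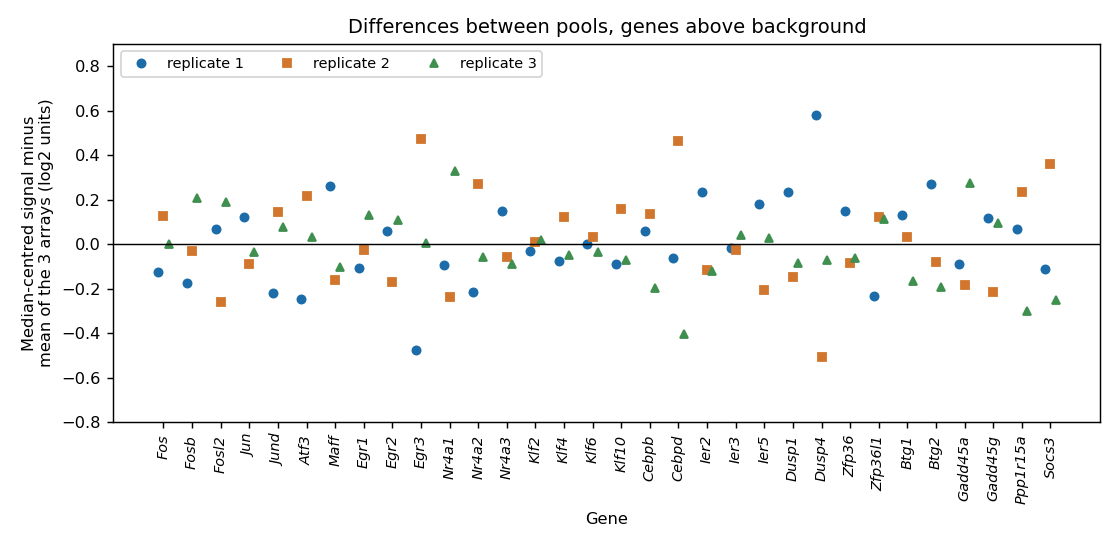
Median-centred log2 signal minus the gene's mean over the 3 arrays (y axis) for the 32 detected immediate early genes (x axis), 1 symbol per pool. Replicate 1 lies highest for 11 genes, replicate 2 for 13 and replicate 3 for 8, and the widest gap is that of Dusp4.

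Upstream factors and kinases known to act on such genes were detected in all but 1 case. All 7 measured genes of the list of Srf and its cofactors were above background (the share of all genes was 57.3%): Srf at 4.95 ± 0.23 log2 units, the ternary complex factors Elk1 at 1.99 ± 0.23, Elk3 at 6.03 ± 0.21 and Elk4 at 6.56 ± 0.22, the actin-regulated cofactors Mrtfa at 1.18 ± 0.21 and Mrtfb at 7.04 ± 0.24, and the ETS factor Fli1 at 4.86 ± 0.21. Signals of Srf were 5329, 4357 and 5298. All 9 measured Creb and Atf genes were above background, with Creb1 at 6.27 ± 0.21, its relative Crem at 3.37 ± 0.24, Atf2, a target of stress kinases, at 6.83 ± 0.20 and Atf4, a factor of the integrated stress response, at 5.20 ± 0.28. Of 14 measured kinase genes of the ERK, JNK and p38 arms of the MAP kinase pathways 13 were. Among them were Map2k1 at 6.44 ± 0.23, Map2k2 at 3.18 ± 0.24, Araf at 4.41 ± 0.21 and Braf at 4.23 ± 0.21. Mapk10, a JNK gene of neurons, lay at -0.75 ± 0.20.

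Further early response and heat shock genes, which also respond to dissociation, were detected in most cases. Of 25 measured early response genes outside the group 22 were above background (57.3% of all genes were), with Myc at 2.61 ± 0.24 log2 units, the survival gene Mcl1 at 7.32 ± 0.21 and the matrix genes Ccn1 at 7.19 ± 0.21 and Ccn2 at 4.74 ± 0.23. Ccn1 had signals of 18915, 23603 and 29413. Trib1 (-1.09 ± 0.23) and Plk3 (-0.93 ± 0.48) were not above it, and the remaining one, Ptgs2, the inducible cyclooxygenase, had signals of 7.43, 13.4 and 44.8. All 9 heat shock genes passed, against the same share of all genes, among them Hspa1a at 1.11 ± 0.21 and Hspa1b at 3.03 ± 0.24, the inducible Hsp70 pair, Hsp90aa1 at 8.28 ± 0.20 and Hspb1 at 3.23 ± 0.20. Hspa1a had 332, 390 and 328. Hspa1a and Hspa1b are near-identical genes, so their probe sets may share signal.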

How the data were processed

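Amplified RNA from 3 pools of sorted cells carried a biotin label and went on Affymetrix arrays, 1 pool each, per the labels' protocols. Each probe set has 1 deposited value per array, an intensity that is not log-transformed. GCOS produced these signals, per the submitters' processing notes, and for its version, algorithm and scaling target the entry is "not given in the sources used here". Trimming 2% from both ends of an array gave a mean of 1500.01 each time, which shows that arrays were brought to a common mean.

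Log2 was taken without a pseudocount, since no value was 0 or below. Of 45101 probe sets, 64 controls, 932 with several symbols and 9160 with none were left out. Entrez IDs of 34741 of the remaining 34945 matched the RefSeq table of GRCm38.p6, and no symbol changed. Where a gene had several probe sets, the brightest by mean log2 stood for it. Detection was tested with limma 3.58.1 in R 4.3.3 (lmFit with an intercept, eBayes, prior df 3.88), as was each probe set (prior df 3.31), on code tested on simulated data. Because background levels differed between arrays (log2 7.08, 7.53 and 7.40), that difference enters each SE and p-value. The number of arrays limits the precision.

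The members and lists were chosen with earlier results of these data known, so counts carry no list test. All members and all genes of the list of Srf and its cofactors are named; of other lists the first 4 detected and the first 2 not detected, in a written order; of markers, those of the interstitium and, of other cell types, up to 2 detected and 2 not. Ptgs2, Prm1, Cpb1, Lor, Meox1, Epcam and Tek fall outside that rule and were named after their values were seen. Of the related genes, 11 had no value and were not analysed here. Alternatives changed the level, the normalization, the probe set rule, the filter, the variance prior and the arrays used.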

Additional observations from a re-analysis of the deposited data

How the results depend on the processing

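The members above background were 32 as reported, beside 57.3% of all genes. They numbered 33 at the 90th percentile of the chemosensory genes (60.5% of all genes) and 26 at the 99th (52.9%). With the level from genes of other tissues 27 passed (53.4%), and with the mean over probe sets 29 (50.4%). Without _x_at and _s_at probe sets 30 passed (55.9%), and with 1 replicate left out 28 to 30 (54.7% to 57.1%). Of the 39 genes, 23 stayed above background in all 14 alternatives. Of the 7 not above it as reported, only Dusp2 passed in any alternative. Gadd45b lay below the level in 5 of them and passed in none. Fosl1, Dusp5 and Arc had no value when dim genes were left out (13 alternatives). Member probe sets, 41 as reported, numbered 36 to 40 and related genes, 77 as reported, 73 to 78 with 1 replicate left out. At the 99th percentile member probe sets numbered 35 and related genes 72, with 6 of the 9 Creb and Atf genes. With the mean over probe sets related genes numbered 65, with 7 of those 9. At the 99th percentile Egr3, Fosb, Maff, Nr4a1, Nr4a3 and Ppp1r15a were lost, and Dusp2 lay at -0.025 and Gadd45b at -0.39 log2 units. With the level from other tissues Egr3, Maff, Nr4a1, Nr4a3 (-0.042) and Ppp1r15a were lost, with Dusp2 at -0.14 and Gadd45b at -0.51. With the mean over probe sets, Nr4a3 lay at -2.07, Cebpb at -0.55 and Gadd45b at -0.63, and Nr4a2 at 0.02 (limma adjusted p = 0.83). Without _x_at and _s_at probe sets Socs3 lay at -1.02 and Gadd45b at -0.67, and leaving out 1 replicate put Gadd45b between -0.25 (without replicate 1) and 0.37 (without replicate 2). Dusp2 passed at the 90th percentile (0.81, limma adjusted p = 0.0124). With arrays centred on their background level, the median SD between pools was 0.34 log2 units for the 32 detected genes. For all 10432 detected genes it was 0.29. A higher level lowers every distance by definition, and the probe set rule decides which values stand for a gene. Why probe sets of a gene differ was not tested. No paired analysis was possible because the series has 1 group. Signals near the background level limit what can be said of Nr4a3, Egr3, Nr4a1, Maff, Fosb, Ppp1r15a and Dusp2.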

Other observations

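Relatives of the immediate early genes in the same families were above background in 17 of 24 measured cases (70.8%), against 57.3% of all genes. With the mean over probe sets, 12 of the 24 were, against 50.4% of all genes, so the share above that of all genes depended on the probe set rule. Among the Klf factors, Klf3 had signals of 8194, 10111 and 9033 in replicates 1, 2 and 3. It exceeded background by 5.81 ± 0.20 log2 units (moderated SE, n = 3, limma adjusted p = 8.64e-07). Klf5 lay 1.63 ± 0.20, Klf7 3.91 ± 0.21 and Klf9, which responds to glucocorticoids, 2.85 ± 0.22 above it. All 3 pools were above their level for each of these genes. Of the phosphatases, Dusp8 had 38.1, 47.6 and 69.0 and lay at -1.69 ± 0.23, and Dusp10, which acts on JNK and p38, had 163, 261 and 157 and lay at 0.22 ± 0.22 (limma adjusted p = 0.295).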
